A study of Homo sapiens with 29 samples.

Results

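The genes described here are 57 genes of autophagy and of the lysosome, taken as a listed set and measured in the PC9 cell line, an EGFR-mutant lung adenocarcinoma line. They are 57 of the 35579 genes for which a level could be summed, and 49 of them are among the 9085 genes that averaged 10 or more TPM (transcript abundance scaled to the same total in each library) over the 29 libraries, the minimum used for testing. Polyadenylated RNA was sequenced from 10 PC9 lines, each untreated, with 1 μM erlotinib (E), an inhibitor of the EGFR kinase, or with erlotinib plus 300 ng/mL of AF154 (EA), an antibody that activates the receptor AXL. Treatment lasted 24 h in dishes seeded with 300000 cells, and each dish gave 1 library. The 10 untreated and 10 E libraries cover every line, and the 9 EA libraries cover every line but KO, whose EA cells were not analysed here.

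The lines were parental cells (PAR), a knockout made from them by CRISPR-Cas9 aimed at the kinase domain of AXL (KO), and 8 lines made by lentiviral transduction of the knockout. The receptor put back was wild-type (WT), had no kinase activity (KD), or carried phenylalanine in place of 1 tyrosine (Y634F, Y643F, Y698F, Y726F, Y750F and Y821F). PAR, WT and the 6 Y-to-F lines, whose AXL had kinase activity, are called competent lines below. The name does not mean a response to AF154, as the study reports that Y643F and Y750F resembled KO or KD in proliferation and apoptosis. Transduced cells were sorted by GFP, and only a fraction of the cells of each transduced line expressed AXL, which limits them as models of a receptor. Lines stand in for replicates in what follows, although 9 of the 10 are the knockout or descend from it. Whether dishes were separate cultures is not stated. The p-values of the main fits compare treatments within each line, so they measure only the spread of the change between these lines. Markers of epithelial cells were high in each library, with KRT8 between 1249 and 1952 TPM and EPCAM between 286 and 439 TPM. The 6 blood cell markers examined, of which LYZ reached the highest single value (1.09 TPM), together reached at most 2.12 TPM, and CD3E was at 0 in all 29 libraries. Of the 6 fibroblast markers, COL1A1 lay between 15.3 and 70.9 TPM, while COL3A1 was at 0 in 22 libraries and LUM in 25. The summed level of the 4 endothelial markers was at most 10.2 TPM, and PECAM1 reached the highest single value (9.60 TPM).

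Autophagy encloses cytoplasm in a double membrane, the autophagosome, which fuses with the lysosome, where acid hydrolases digest its content. The kinase mTORC1 holds the pathway down by phosphorylating the ULK1 complex, which starts autophagosome formation, and the transcription factors TFEB, TFE3 and MITF, which otherwise enter the nucleus and bind promoters of lysosomal and autophagy genes. In cells whose growth factor receptor is inhibited, signalling through AKT and ERK to mTORC1 falls and autophagy is a known response. RNA levels, the quantity measured here, do not measure autophagic flux.

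With erlotinib the RNA of most of these genes rose. Of the 49 genes tested, 38 were higher and 7 lower with E than untreated at an adjusted p under 0.05 (limma with the line as a block, Benjamini-Hochberg over all genes), and 4 did not pass. Over all 9085 genes tested, 79.0% passed, 36.4% higher and 42.6% lower. The 57 genes were chosen with earlier results of these data known, so their counts beside the shares of all genes do not test the set. The median change of the 49 genes was 0.41 on the scale of log2(TPM + 1), on which every change below is given, and that of all genes was -0.04. In 37 of the 49 the change had the same direction in each of the 10 lines, as it had in 57.6% of all genes. In 25 of the 49, each E library lay above each untreated library (14.9% of all genes), and in 2, ATG3 and ATG16L1, each lay below (21.6% of all genes). ATG9B and ATG14, whose means untreated were 3.01 and 7.04 TPM, and TECPR1, at 9.74 TPM, reached the minimum of 10 TPM only through the treated libraries. Their calls and ranks support nothing about the set, in whose counts they are included. The 8 genes under the minimum were TFEB, RRAGD, FNIP1, FNIP2, ULK2, ATG2B, MAP1LC3A and NEU1. With no minimum, all 57 could be fitted, and 39 were higher and 7 lower with E.

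Summed over the 57 genes, the level was between 4273 and 4880.2 TPM in the 10 untreated libraries, with a mean of 4573 ± 186 TPM (SD). It was between 7508 and 8406 TPM with E, with a mean of 7814 ± 299 TPM, and between 6776 and 7935 TPM with EA, with a mean of 7483 ± 339 TPM. No untreated library overlapped the treated libraries, and PAR was the lowest of the EA libraries. SQSTM1 alone gave a mean of 17.2% of the sum untreated and 21.1% with E, and PSAP gave 11.98% and 15.7%. TPM is a share of all transcripts in a library, so more RNA of a gene and less RNA of other genes cannot be told apart. In a bulk library, fewer cells of a type and less RNA per cell cannot be told apart either.

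**Figure D1:**
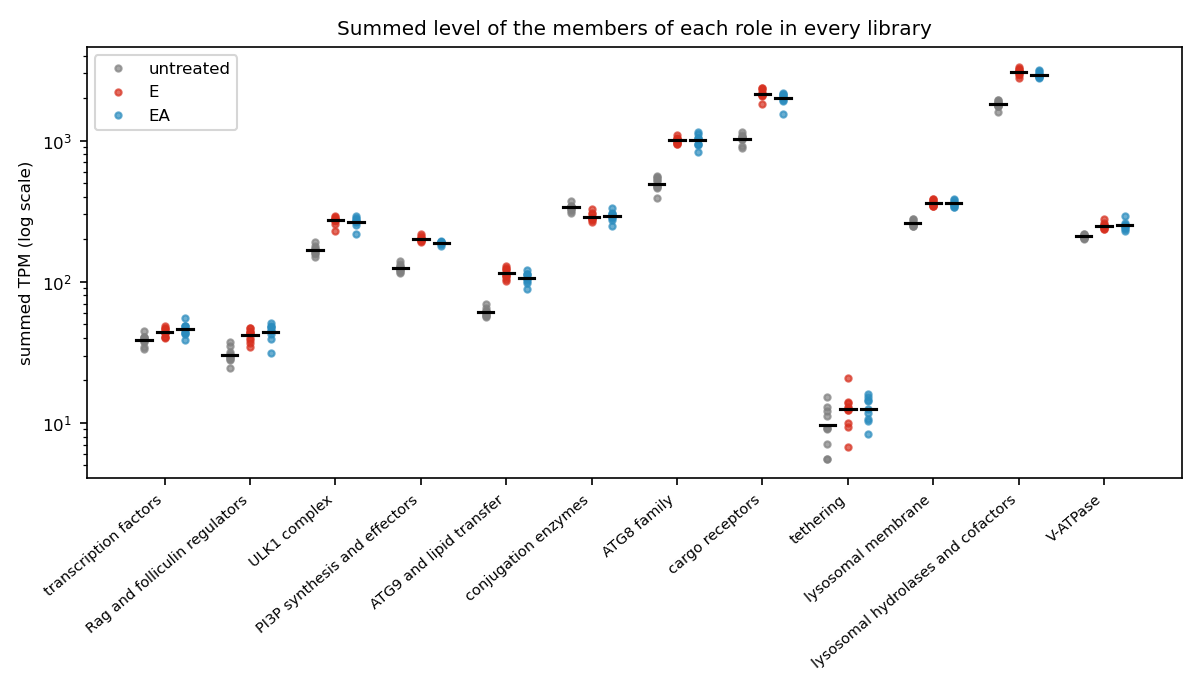
Summed TPM (log axis) of the 57 genes in each of 12 roles, with 1 point per library and black bars at the means over lines (10 untreated in grey, 10 E in red, 9 EA in blue). The cargo receptors went from a mean of 1030.0 to 2148 TPM with E and the ATG8 family from 496 to 1003 TPM, while the conjugation enzymes went from 336 to 289 TPM.

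The transcription factors themselves changed by less than the median of the set. TFE3 (ENSG00000068323, chromosome X from 49028726 to 49043486 in GENCODE 29, GRCh38) had a lowest, median and highest level of 19.9, 24.3 and 27.8 TPM untreated, and of 24.1, 25.9 and 29.9 TPM with E. These ranges overlapped. The change was 0.12 ± 0.05 (SE), higher in 8 of 10 lines, with an adjusted p of 0.0305 (limma), which was lost without any of 5 of the lines. MITF (ENSG00000187098, chromosome 3 from 69739435 to 69968337) went from 8.14, 9.68 and 15.2 TPM to 10.3, 11.99 and 15.1 TPM. PAR was the highest untreated library and fell by 0.09, whereas the 9 other lines were higher with E, for a mean change of 0.26 ± 0.07 (adjusted p = 0.00516, limma).

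TFEB (ENSG00000112561, chromosome 6 from 41683978 to 41736259) was under the minimum, at 2.23, 3.49 and 9.60 TPM untreated, 2.87, 5.26 and 8.10 TPM with E and 3.22, 4.22 and 17.6 TPM with EA. PAR held the highest untreated and the highest EA value, and the 3 ranges overlapped. With a minimum of 1 TPM its change with E was 0.29 ± 0.19 (adjusted p = 0.183, limma), higher in 7 of 10 lines. Of the regulators that link these factors to mTORC1, FLCN, part of a complex that acts on the Rag GTPase RRAGC and RRAGD, rose by 0.53 ± 0.06 (adjusted p = 1.25e-06, limma), from a mean of 21.3 to 31.0 TPM. Its partner FNIP1 had 5.28 TPM untreated and 7.79 TPM with E, each E library being above each untreated library, and rose by 0.49 ± 0.07 with the minimum of 1 TPM (adjusted p = 2.04e-05, limma). FNIP2, with means of 3.77 and 3.01 TPM, did not pass in that fit (adjusted p = 0.131, limma). RRAGD reached at most 0.266 TPM in any library.

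In the ULK1 complex, the kinase ULK1 (ENSG00000177169, chromosome 12 from 131894651 to 131923167), which receives the signals of mTORC1 and AMPK, had 24.0, 27.3 and 34.6 TPM untreated (lowest, median and highest). With E the values were 89.5, 103 and 108 TPM, and with EA 87.4, 97.6 and 106 TPM. The lowest treated library stood far above the highest untreated library, and E and EA overlapped. The change with E was 1.82 ± 0.05 (adjusted p = 3.62e-13, limma), or 3.61-fold between mean TPM. ATG13, the subunit that bridges ULK1 to its partners, rose by 0.58 ± 0.06, and ATG101, which stabilises ATG13, fell by 0.19, being lower in 8 of 10 lines (adjusted p = 0.00474, limma). ULK2, the paralogue of ULK1, stayed at 2.27 ± 0.885 TPM untreated and 2.29 ± 0.557 TPM with E (SD, n = 10).

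The lipid PI3P marks the site where the autophagosome forms. BECN1, WIPI1 and WIPI2, of the genes for its synthesis and its effectors, rose in all 10 lines, where 36.4% of all genes were called higher and 57.6% had 1 direction in each line. WIPI1 (ENSG00000070540, chromosome 17 from 68420948 to 68457513), which binds PI3P, had 4.78, 9.97 and 16.2 TPM untreated, 39.9, 43.0 and 46.9 TPM with E and 33.0, 40.2 and 42.1 TPM with EA. PAR was the lowest untreated library, and the treated libraries lay close together and above all untreated ones. Its change with E was 1.98 ± 0.10 (adjusted p = 1.87e-10, limma), against 0.43 ± 0.03 for its relative WIPI2, which recruits ATG16L1. BECN1, a subunit of the PI3P kinase, rose by 0.41 ± 0.05 and ATG14, which directs that kinase to autophagy and was under the minimum untreated, had a change of 0.81 ± 0.07.

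Among the genes for ATG9, the lipid scramblase of the early membrane, and for the lipid transfer protein ATG2, the largest change of the whole set was that of ATG9B (ENSG00000181652, chromosome 7 from 151012209 to 151024499, minus strand). This rank supports nothing about the set, because ATG9B reached the minimum only through the treated libraries. Untreated, it was at 0.876 TPM in PAR, 3.76 in KO, 2.62 in WT, 1.77 in KD, 4.43 in Y634F, 7.06 in Y643F, 2.05 in Y698F, 2.75 in Y726F, 2.12 in Y750F and 2.68 in Y821F. With E it was at 38.2 TPM in PAR, 27.5 in KO, 21.5 in WT, 31.6 in KD, 44.0 in Y634F, 49.0 in Y643F, 26.4 in Y698F, 37.7 in Y726F, 32.7 in Y750F and 39.1 in Y821F. Each line was higher with E, and PAR went from the lowest untreated value to the fourth highest. The change was 3.23 ± 0.15 (adjusted p = 4.65e-11, limma), and the ratio of mean TPM was 11.5. Its paralogue ATG9A, the more abundant of the pair untreated at 37.6 TPM, rose by 0.41 ± 0.04, and ATG2A rose by 0.49 ± 0.05. ATG2B was under the minimum, with 2.76 TPM untreated and 4.52 TPM with E, of which protein-coding transcripts held 1.16 ± 0.131 and 1.21 ± 0.189 TPM (SD, n = 10).

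Much of what was assigned to ATG9B was not annotated as coding. With E, transcripts of the protein-coding type held 27.8% of its TPM, a mean of 9.67 ± 2.42 TPM against 0.710 ± 0.251 untreated (SD, n = 10), and the rest was assigned to retained-intron and processed transcripts. ATG9B also overlaps NOS3, the endothelial nitric oxide synthase gene, which lies on the opposite strand. NOS3 was between 1.56 and 9.03 TPM untreated, with a median of 2.16, between 10.02 and 18.01 TPM with E, with a median of 11.9, and between 6.72 and 13.7 TPM with EA, with a median of 11.3. Strand handling is not given in the sources used here, so reads of the 2 genes cannot be told apart where they overlap, and their part in the change of ATG9B was not tested.

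**Figure D2:**
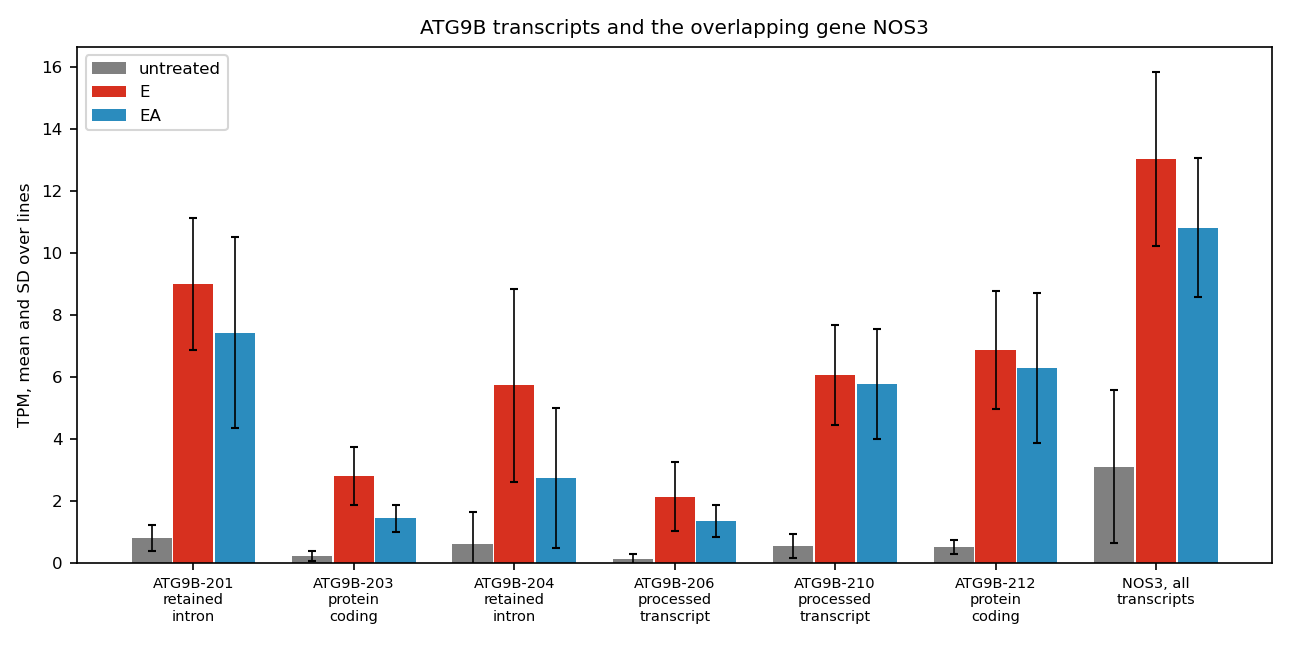
Mean TPM over lines of the 6 most abundant annotated transcripts of ATG9B, with their GENCODE type, and of NOS3, with bars for the SD (10 untreated, 10 E and 9 EA libraries). The retained-intron transcript ATG9B-201 had the highest mean of the ATG9B transcripts with E, at 8.997 TPM, and NOS3 went from 3.10 to 13.0 TPM.

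The conjugation enzymes, which attach ATG8 proteins to lipid, were divided. Of 7 tested, 4 were lower with E, 1 was higher and 2 did not pass, with a median change of -0.32, where 42.6% of all genes were lower and 36.4% higher. ATG3 (ENSG00000144848, chromosome 3 from 112532509 to 112562046), the E2-like enzyme that hands ATG8 proteins to lipid, had 86.3, 89.8 and 96.4 TPM untreated and 52.2, 53.9 and 59.8 TPM with E. All 10 lines were lower and the ranges were far apart, and the change was -0.72 ± 0.03 (adjusted p = 4.08e-11, limma). ATG16L1, which sets the site of conjugation, fell by 0.61 (SE 0.07), from 29.1 ± 6.64 to 18.4 ± 1.48 TPM (SD, n = 10). The E1-like enzyme ATG7 and the protease ATG4A each fell by 0.32 (adjusted p = 0.000229 and 0.000922, limma), in 9 and 10 of the 10 lines. ATG5, which is joined to ATG12, rose by 0.10 ± 0.04 (adjusted p = 0.0374, limma), with 25.5% of its TPM untreated and 31.3% with E in protein-coding transcripts, while ATG12, at 42.6 and 45.3 TPM, and ATG4B, at 95.3 and 100.1 TPM, did not pass. ATG16L1 has a copy on an alternate locus of the assembly to which the authors' quantification gave the same TPM again, so its level here is 50% of the total for the gene.

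The 4 ATG8 genes tested, whose products coat the autophagosome and bind cargo receptors, rose in each line, but unequally (of all genes, 36.4% were called higher and 57.6% had 1 direction in each line). GABARAPL1 (ENSG00000139112, chromosome 12 from 10212458 to 10223130) had 42.4, 63.4 and 75.0 TPM untreated, 236, 324 and 367 TPM with E and 164, 305 and 329 TPM with EA (lowest, median and highest). The treated and untreated ranges were far apart, and PAR was the lowest library in each treatment. Its change with E was 2.32 ± 0.05 (adjusted p = 4.39e-14, limma), a 5.05-fold ratio of mean TPM, and its near copy GABARAPL3 reached at most 0.633 TPM. GABARAP itself, the most abundant member of the family, rose by 0.74 ± 0.06, from a mean of 325 to 541 TPM, and GABARAPL2 by 0.35 ± 0.04. MAP1LC3B (ENSG00000140941, chromosome 16 from 87383995 to 87404779), the LC3 gene whose lipid-bound product is widely used as an autophagosome marker, had 20.3, 27.2 and 32.7 TPM untreated and 33.1, 38.6 and 43.6 TPM with E. The ranges were adjacent without overlap, and the change was 0.51 ± 0.05 (adjusted p = 1.04e-07, limma). MAP1LC3A reached at most 0.679 TPM in any library.

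The 6 cargo receptors, which bind both ATG8 proteins and the material to be degraded, rose in all 10 lines with a median change of 0.98, beside the 36.4% of all genes called higher and the 57.6% with 1 direction in each line. CALCOCO1 (ENSG00000012822, chromosome 12 from 53708517 to 53727745), a receptor for the endoplasmic reticulum and the Golgi, had 21.8, 28.3 and 41.8 TPM untreated and 125, 144 and 174 TPM with E. Y643F was the highest untreated library and WT the lowest in both treatments, and the ranges were far apart. The change was 2.34 ± 0.05 (adjusted p = 3.18e-14, limma), a 5.16-fold ratio of mean TPM. Retained-intron transcripts took part of its TPM, and protein-coding ones held 50.1% untreated and 48.9% with E, so the change over coding transcripts alone was 2.26.

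SQSTM1 (ENSG00000161011, chromosome 5 from 179806398 to 179838078), which encodes p62, a receptor for ubiquitinated protein and itself a substrate of autophagy, was the most abundant gene of the set. It had 609, 805 and 920.3 TPM untreated, 1281, 1637 and 1864 TPM with E and 1078, 1515 and 1679 TPM with EA. PAR was the lowest library in each treatment, and even its E library was above every untreated one. The change with E was 1.07 ± 0.03 (adjusted p = 3.43e-13, limma). OPTN, a receptor for mitochondria and bacteria, rose by 1.16 ± 0.04, from 35.2 to 79.9 TPM, and NBR1, a partner of p62, by 0.89 ± 0.03, from 49.1 to 92.0 TPM. TAX1BP1 rose by 0.55 ± 0.03 and CALCOCO2, also called NDP52, by 0.19 ± 0.04 (adjusted p = 0.000615, limma). TECPR1, a tether between autophagosome and lysosome, had 9.74 ± 3.18 TPM untreated and 12.5 ± 3.66 TPM with E (SD, n = 10), higher in 7 of 10 lines and lower in 3 (adjusted p = 0.0315, limma). Its largest rises were in KO (5.59 to 13.8 TPM) and KD (9.23 to 20.7 TPM), and its call stood near the threshold.

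**Figure D3:**
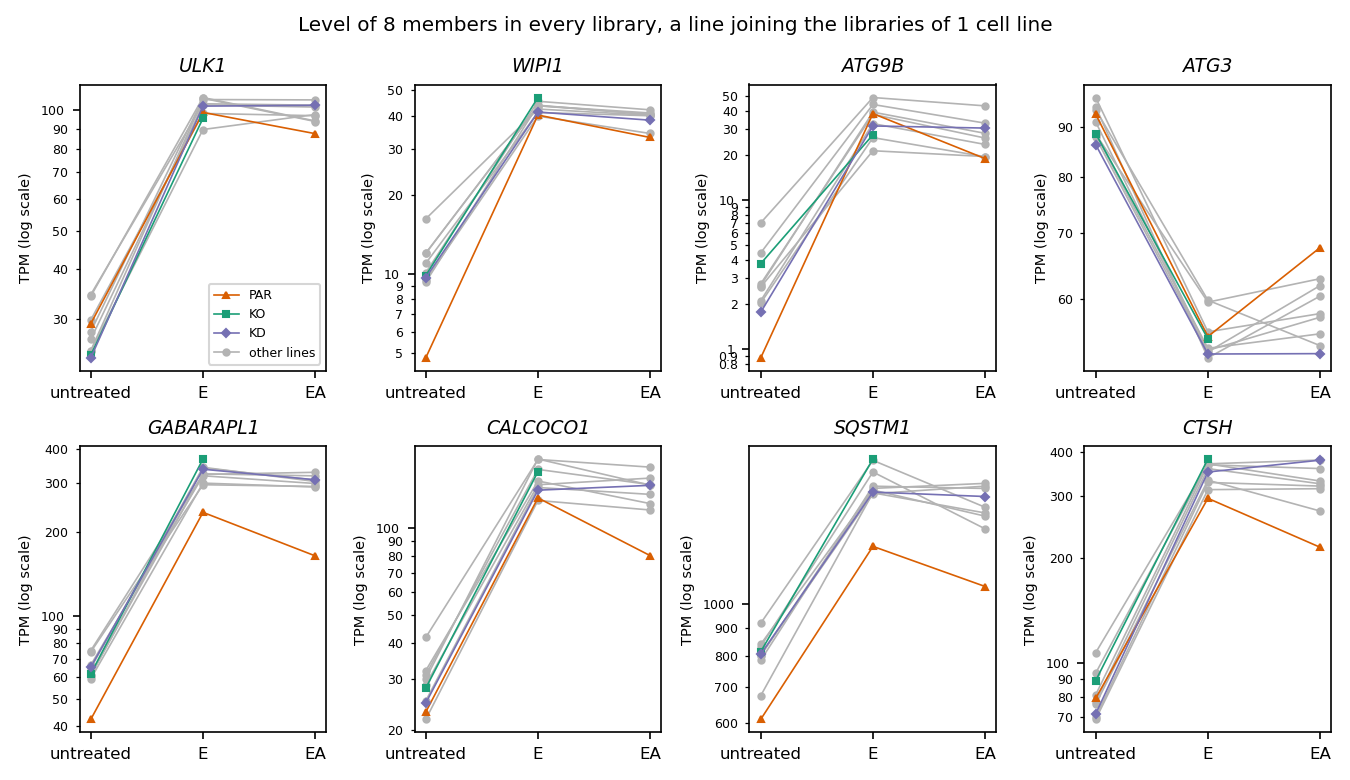
TPM (log axis) of 8 genes in each library, with a line joining the libraries of 1 cell line (PAR orange, KO green without an EA library, KD purple, the 7 others grey). The panels rise from untreated to E except that of ATG3, which falls, and from E to EA the levels move far less.

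The 3 genes of the lysosomal membrane tested were higher with E, with a median change of 0.40, beside 36.4% of all genes higher and 42.6% lower. LAMP1 (ENSG00000185896, chromosome 13 from 113297241 to 113323672), a main glycoprotein of the membrane, had 138, 146 and 163 TPM untreated and 184, 196 and 215 TPM with E. The ranges did not overlap, and the change was 0.40 ± 0.03 (adjusted p = 5.04e-09, limma). LAMP2 rose by 0.58 ± 0.04. Of its 3 splice forms, LAMP2A (LAMP2-201), the receptor of chaperone-mediated autophagy, was assigned 62.1 ± 4.01 TPM untreated and 99.6 ± 8.33 TPM with E, LAMP2B (LAMP2-202) 27.9 ± 2.23 and 33.2 ± 2.54 TPM, and LAMP2C (LAMP2-203) 8.99 ± 2.08 and 16.7 ± 1.63 TPM (SD, n = 10). The ranges of LAMP2A and LAMP2C did not overlap between the treatments and those of LAMP2B did. MCOLN1, the calcium channel of the lysosome, rose by 0.39 ± 0.10 in 9 of 10 lines (adjusted p = 0.00244, limma), PAR being lower. Its protein-coding transcripts had 8.30 ± 0.796 TPM untreated and 8.67 ± 1.68 TPM with E (SD, n = 10), so most of this rise lay in transcripts not annotated as coding. MCOLN1 also overlaps PNPLA6 on the same strand, which went from 89.8 ± 7.81 to 134.7 ± 11.8 TPM with E (SD, n = 10). Strand cannot separate reads of these genes where they overlap, and the part of PNPLA6 in the rise of MCOLN1 was not tested.

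Of the 11 hydrolases and cofactors tested, 8 were higher with E, 2 lower and 1, CTSZ, did not pass, where 36.4% of all genes were higher and 42.6% lower. CTSH (ENSG00000103811, chromosome 15 from 78921058 to 78949574), an aminopeptidase of the cathepsin family, had 69.0, 78.4 and 107 TPM untreated, 296, 356 and 383 TPM with E and 214, 325 and 380.4 TPM with EA. PAR was lowest in E and EA, and the untreated libraries lay far below both. The change was 2.09 ± 0.05 (adjusted p = 5.09e-14, limma), although protein-coding transcripts held 23.0% of its TPM untreated and 21.8% with E. PSAP, the precursor of the saposins that activate sphingolipid hydrolases, rose by 1.16 ± 0.03, from 548 ± 41.6 to 1228 ± 60.9 TPM (SD, n = 10). CTSA, the protective protein that binds the sialidase NEU1, rose by 1.03 ± 0.03, and GAA, the acid glucosidase of glycogen, by 0.98 ± 0.04. Smaller rises were those of TPP1 (0.72), the cathepsins CTSB (0.49) and CTSD (0.22), and HEXA (0.45), a subunit of hexosaminidase.

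The 2 hydrolases that fell were the cathepsin CTSL and the galactosidase GLA, each by 0.35 in 10 of 10 lines (adjusted p = 2.16e-07 and 1.25e-06, limma). NEU1 was under the minimum, with 2.33 ± 0.824 TPM untreated and 5.92 ± 0.663 TPM with E. It lies in the MHC region, of which the assembly holds several alternate copies, and 84.7% of its TPM had been assigned to those copies. With them it had 17.0 ± 2.39 TPM untreated and 38.0 ± 2.53 TPM with E (SD, n = 10), no library overlapping, and its change was 1.13 ± 0.06 (adjusted p = 1.15e-10, limma). Of the 4 subunits of the V-ATPase, the proton pump of the lysosome, ATP6AP1 (0.32), ATP6V1H (0.22) and ATP6V0D1 (0.18) rose and ATP6V1A did not pass, at 21.2 and 21.6 TPM, whereas of all genes 79.0% passed and 36.4% were higher.

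**Figure D4:**
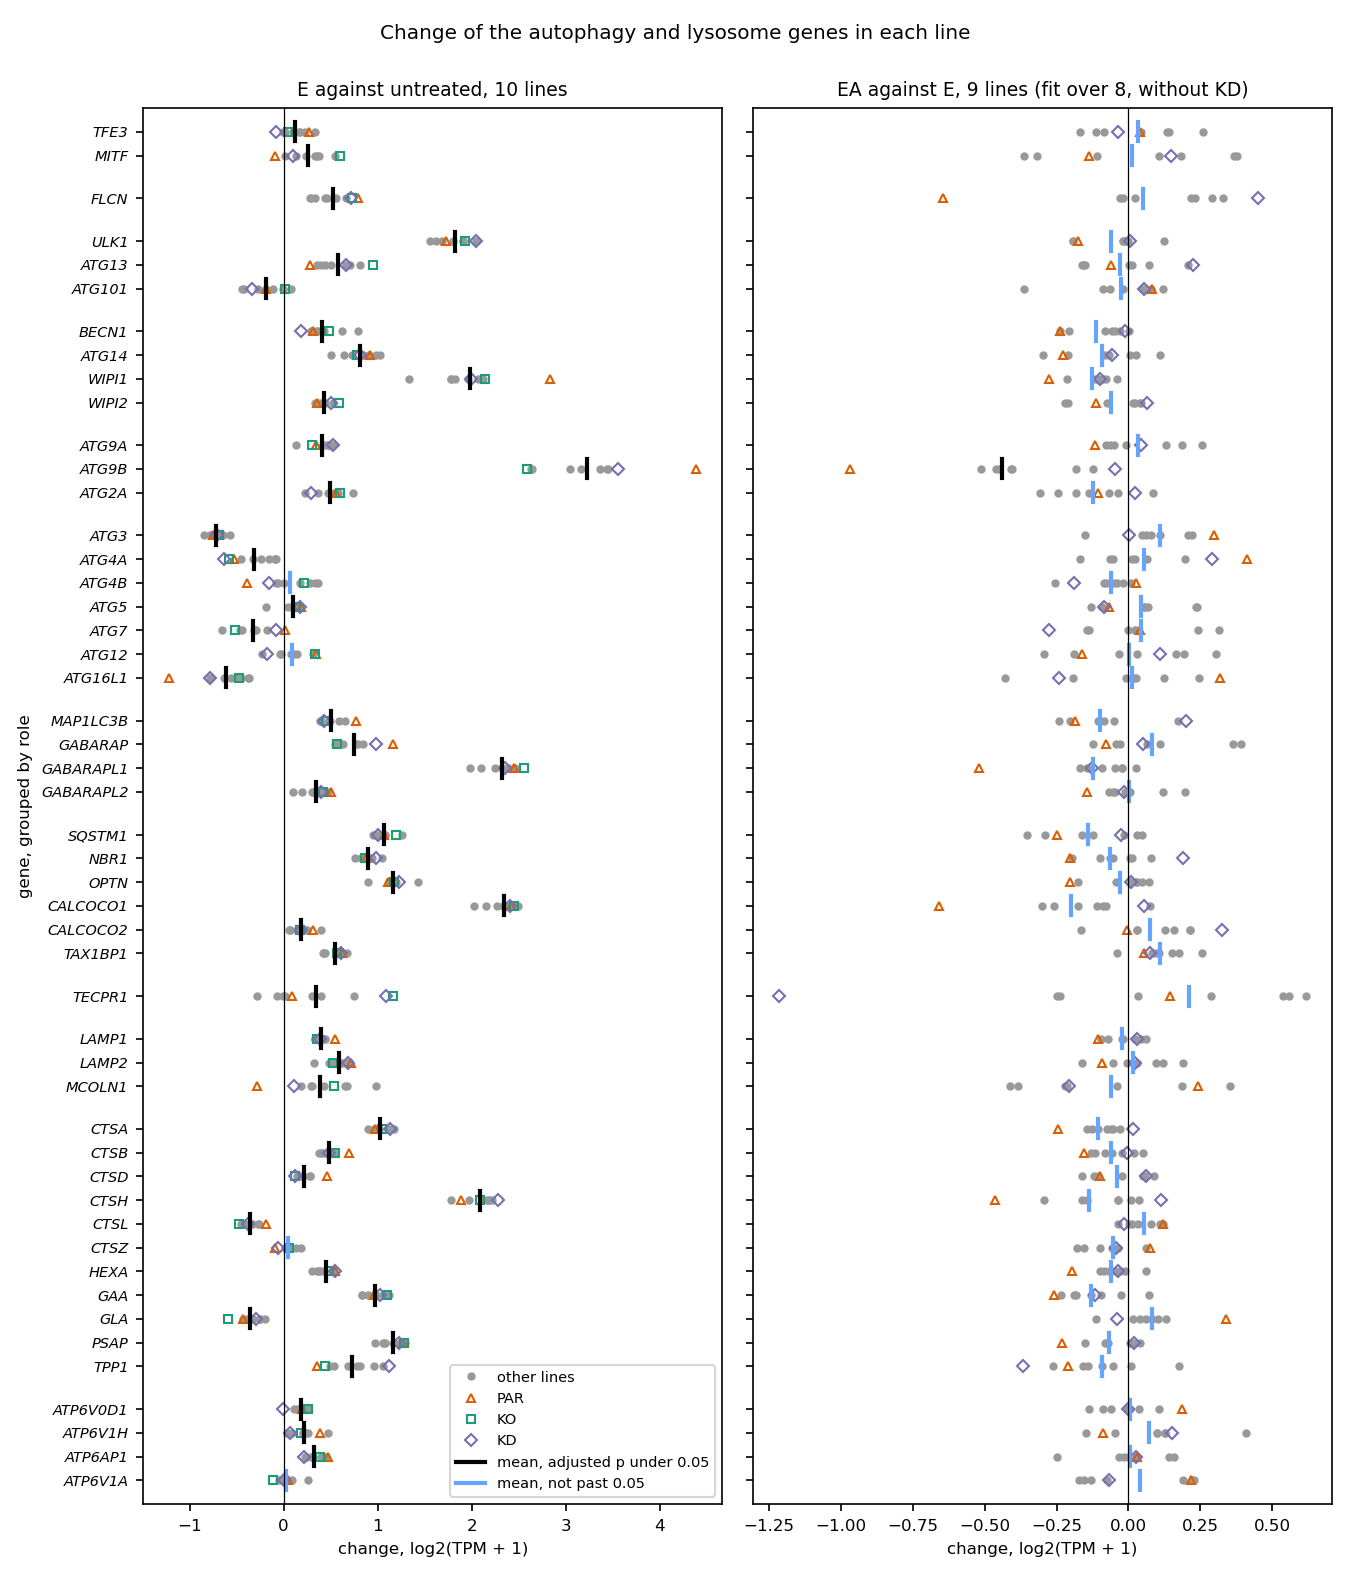
Change on log2(TPM + 1) of the 49 genes tested, grouped by role, for E against untreated (left) and EA against E (right, on a narrower axis), with 1 point per line (PAR orange triangles, KO green squares, KD purple diamonds) and bars at the limma mean, black where the adjusted p was under 0.05. On the left 45 bars are black, and on the right 1, that of ATG9B.

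TFEB and its relatives bind a motif with the letters CACGTG at its core, so the promoters of the genes were searched for it. Promoters of 48 of the 57 genes, each 250 bases before to 50 bases after the start site, were found in RefSeq (GRCh38.p14). MAP1LC3A, ATP6V1H, LAMP2, HEXA, PSAP, CALCOCO1, RRAGD, ATP6V1A and CTSB had no entry. CACGTG, which reads the same on both strands, was present in 10 of the 48 (20.8%), against 8.77% of the 27305 genes with a promoter in the table and 10.9% of the 15843 protein-coding ones. The longer letters TCACGTG, or CACGTGA on the opposite strand, which contain the former, were present in the same 10 (20.8%), against 4.49% and 5.83%. The promoters set beside them were not limited to genes expressed here. The 57 genes are also of the kind whose promoters these factors are known to bind, so nothing about these data is read from the difference. The 10 were LAMP1, with 6 matches, GAA, MCOLN1, CTSA, FNIP1 and ATG3, with 2 each, and NEU1, CTSD, ATG14 and ATP6V0D1, with 1 each. The stretch before the start of LAMP1 is shown because 4 of its matches follow each other within 80 bases, and a window of 30 bases around a match is shown for genes of different roles, with the letters CACGTG in capitals.

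LAMP1 (chr13:113297035-113297114, plus strand): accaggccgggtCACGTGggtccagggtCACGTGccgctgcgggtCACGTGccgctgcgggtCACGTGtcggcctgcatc
GAA (chr17:80101493-80101522, plus strand): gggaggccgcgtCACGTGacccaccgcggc
MCOLN1 (chr19:7522571-7522600, plus strand): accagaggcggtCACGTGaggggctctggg
CTSA (chr20:45891281-45891310, plus strand): gaggaagactgtCACGTGgcgccggagttc
NEU1 (chr6:31862930-31862959, minus strand): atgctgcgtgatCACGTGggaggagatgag
ATG14 (chr14:55411834-55411863, minus strand): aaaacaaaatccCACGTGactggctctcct
ATG3 (chr3:112561963-112561992, minus strand): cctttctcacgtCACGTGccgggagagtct

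Of the 8 genes with the letters that were tested, 7 were higher with E and 1, ATG3, was lower, with a median change of 0.39. Of the 34 tested genes whose promoter lacked them, 25 were higher and 6 lower, with a median of 0.41. Over all genes, 36.4% were higher and 42.6% lower. The former count includes ATG14 and the latter ATG9B and TECPR1, which reached the minimum only through the treated libraries, so nothing is read from these counts. The genes with the largest rises and an entry in the table (ATG9B, GABARAPL1, CTSH, WIPI1 and ULK1) had no match in this window, which says only that these letters were not there.

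Other genes of the pathway, not among the 57, moved in part, and their counts stand beside the 36.4% of all genes that were higher with E and the 42.6% that were lower. Their lists, and the proliferation list below, were also chosen with earlier results known, so these counts do not test them either. Of 17 further genes of the autophagy machinery tested, 9 were higher with E and 2 lower, led by VMP1 (1.22, from 122 ± 24.6 to 287 ± 62.2 TPM), which works with ATG9 and ATG2 at the forming membrane, and by WDR45 (0.92), a relative of the WIPI genes. UVRAG (-0.24), a partner of BECN1, and RAB7A (-0.10), a GTPase of late endosomes, were the lower ones. Among 36 further lysosomal hydrolases and transporters, 25 were higher and 2 lower. The largest rises were those of the cathepsins CTSF (1.67, from 12.1 ± 1.78 to 40.9 ± 6.55 TPM) and CTSS (1.45, from 6.32 ± 2.03 TPM, under the minimum, to 18.8 ± 4.39 TPM), and the largest fall was that of CTSC (-1.05, from 179 ± 35.9 to 85.1 ± 13.3 TPM), which activates proteases of granules. Of 13 further V-ATPase subunits, 6 were higher and 5 lower, from ATP6AP2 and ATP6V1E1 (0.43 each) to ATP6V1B2 (-0.14) and ATP6V0A2 (-0.40).

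Receptors of single organelles were divided, with 4 higher and 2 lower of 9. CCPG1 (0.45), a receptor for the endoplasmic reticulum, and BNIP3L (0.35), for mitochondria, were higher, and BNIP3 (-0.67), also for mitochondria, and PHB2 (-0.62), of the inner mitochondrial membrane, were lower. Of 24 genes that control mTORC1 or AMPK, 12 were higher and 7 lower, with a median of 0.10. CASTOR2 (1.20, from 7.82 ± 1.47 TPM, also under the minimum), a relative of an arginine sensor, and the Rag GTPase RRAGB (0.98, in 9 of 10 lines) had the largest rises. MLST8 (-0.51), a subunit of mTORC1, and NPRL3 (-0.58), a subunit of GATOR1, which inhibits it, had the largest falls. CTSS and CASTOR2 reached the minimum only through the treated libraries, so their calls and ranks support nothing about their lists, in whose counts they are included. The genes named here had adjusted p-values of at most 0.00473 (limma, 10 lines).

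Genes of proliferation moved with erlotinib in the same libraries. All 10 of those listed were lower with E, where 42.6% of all genes were lower, and their median change was -1.81. The largest falls were those of the DNA replication genes MCM6 (-2.69, from 46.1 ± 3.33 to 6.49 ± 1.68 TPM) and RRM2 (-2.57). MCM6 was under the minimum with E, so its call and rank support nothing about the list, in whose counts it is included. The summed level of the 10 genes was between 1556 and 1757 TPM untreated, between 369 and 590 TPM with E and between 477 and 737 TPM with EA. The share of mitochondrially encoded RNA was 12.9 ± 0.966% untreated, 13.5 ± 1.48% with E and 14.5 ± 1.497% with EA (SD over 10, 10 and 9 libraries). The part of either in the change of the autophagy and lysosome genes was not tested.

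Adding AF154 to erlotinib moved these genes little. Over the 8 competent lines, 0 of the 49 tested genes were higher and 1, ATG9B, was lower with EA than with E at an adjusted p under 0.05 (limma), where 2.36% of all genes passed, 1.88% higher and 0.473% lower. These shares fell whichever of the 8 lines was left out. The 171 genes higher and 43 lower became 49 and 6 without PAR, 10 and 0 without Y634F, 18 and 0 without Y643F and 48 and 7 without Y698F. They became 62 and 14 without Y750F, 83 and 11 without Y821F, 110 and 21 without WT and 146 and 42 without Y726F. With no block on the line they were 9 and 0 (limma). With each library centred on its median they were 133 and 72, so that fewer of the calls were higher. The 3 settings with 0 genes lower had 1556, 1599 and 958 genes at an unadjusted p under 0.05, in the order given, against 1895 with all lines and the block. With a line left out and the block kept, that number lay between 1555 (without Y821F) and 2006 (without Y726F). At an unadjusted p under 0.05, 2 were higher and 10 lower, together 24.5% of the 49, against 20.9% of all genes. With no block on the line, 3 of the 49 genes were under 0.05, beside 958 of all 9085. The median change was -0.03, and 0.02 over all genes. In 3 genes, ATG9B, WIPI1 and CTSA, all 8 lines were lower with EA, and over all genes 5.51% moved the same way in each line and 1.55% were lower in each. A call that misses the threshold does not show that a level stayed the same, and the standard errors over the 49 genes lay between 0.03 and 0.11.

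ATG9B was at 19.1 TPM in PAR, 19.7 in WT, 33.0 in Y634F, 43.1 in Y643F, 19.6 in Y698F, 26.2 in Y726F, 23.7 in Y750F and 28.2 in Y821F with EA. Each was below its own line with E, although the ranges of the 2 treatments overlapped, and each remained above all untreated libraries. The change was -0.44 ± 0.08 (adjusted p = 0.0236, limma), and the ratio of mean TPM was 0.736. In KD, which lacks kinase activity, ATG9B was 31.6 TPM with E and 30.6 TPM with EA, a change of -0.05 with no replicate. The call for ATG9B was lost without Y634F, Y643F or Y698F (adjusted p = 0.0689, 0.0551 and 0.0512, limma) and in the fit without the line as a block (adjusted p = 0.364). Over coding transcripts alone ATG9B had too low a mean to be tested.

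None of the other genes with large rises under erlotinib passed. GABARAPL1 changed by -0.12 ± 0.05 (adjusted p = 0.208), SQSTM1 by -0.14 ± 0.05 (0.132), CALCOCO1 by -0.20 ± 0.07 (0.115), WIPI1 by -0.13 ± 0.04 (0.109), CTSH by -0.14 ± 0.05 (0.169) and ULK1 by -0.06 ± 0.04 (0.431), all by limma. TFE3 (0.03 ± 0.06), MITF (0.01 ± 0.09), MAP1LC3B (-0.10 ± 0.05) and LAMP1 (-0.02 ± 0.03) did not pass either. Over coding transcripts alone CTSH passed, with a change of -0.23 (adjusted p = 0.0369, limma), and was then the 1 gene called. In the same lines 9 of the 10 proliferation genes were higher with EA, with a median change of 0.37, where 1.88% of all genes were higher. That share varied with the lines and the block, as the 171 genes higher became 10 without Y634F, 146 without Y726F and 9 with no block. The part of the proliferation genes in these values was not tested. None of the genes of the other autophagy, lysosome, V-ATPase and mTORC1 lists passed between EA and E, with 10 of 99 at an unadjusted p under 0.05, where 20.9% of all genes were.

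Set against untreated cells, the 8 competent lines with EA had 37 of the 49 genes higher and 7 lower (limma), where 70.6% of all genes passed, 33.1% higher and 37.6% lower. This comparison shares its untreated libraries with that of E and its EA libraries with that of EA against E. The changes with EA are over the 8 competent lines and those with E over all 10, KO and KD included. They stood side by side at 2.83 with EA and 3.23 with E for ATG9B, 2.17 and 2.32 for GABARAPL1, 2.12 and 2.34 for CALCOCO1, 0.92 and 1.07 for SQSTM1, 1.72 and 1.82 for ULK1, and -0.61 and -0.72 for ATG3.

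The median spread between lines was small beside the median change with E, which did not hold for every gene. In TECPR1, ATG4B, ATG12, CTSZ and ATP6V1A, the SD between lines, averaged over the 3 treatments, was larger than the change with E. The median over the 49 genes of the SD between lines was 0.13 untreated, 0.12 with E and 0.13 with EA, and over all genes it was 0.15, 0.15 and 0.17. By line, the median change of the 49 genes with E lay between 0.33 in WT and 0.49 in KO, and between 37 and 42 of them were higher. It was 0.43 in KD and 0.46 in PAR. Over all genes the median change lay between -0.16 in PAR and 0.02 in Y643F. KO was above every other line both untreated and with E for 1 gene, NBR1 (1.79% of all genes), and below for 1, ATG16L1 (2.22%). KD was above or below every other line in all 3 treatments for 0 genes (0.0550% and 0.451% of all genes).

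PAR differed from the other lines in its RNA composition as well. Mitochondrially encoded RNA was 17.4% of its E library, against 12.3 to 14.2% in the other lines, and 16.4% of its EA library, where Y821F had 17.4% and the others 12.9 to 14.8%. Its E library had 8643 genes at 10 TPM or more, the fewest of the 29 libraries, and its untreated library had 9108, the most of the 10 untreated ones. The part of these in the values of PAR was not tested. PAR was above every other line in all 3 treatments for 4 of the 49 genes, ATG14, WIPI2, TAX1BP1 and ATP6AP1, and below for 4, ATG13, GABARAPL1, SQSTM1 and NBR1, against 8.71% and 11.8% of all genes. TAX1BP1 was at 129 TPM untreated, 199.96 TPM with E and 208 TPM with EA in PAR, while the highest of the other lines was 88.7, 130.1 and 145 TPM. With E, the change of PAR was above that of every other line in 16 of the 49 genes (9.59% of all genes), among them ATG9B, WIPI1, MAP1LC3B, GABARAP, LAMP1 and LAMP2, and below in 7 (33.0% of all genes), among them MITF, ATG16L1 and MCOLN1. From E to EA, the change of PAR was below that of each other competent line in 17 of the 49 genes (11.5% of all genes), ATG9B, GABARAPL1, CALCOCO1, CTSH and WIPI1 among them, and above in 7 (21.2% of all genes). GABARAPL1 went from 236 to 164 TPM in PAR, while the 7 other competent lines lay between 297 and 343 TPM with E and between 291 and 329 TPM with EA. Without PAR its mean change from E to EA was -0.07 in place of -0.12, that of CTSH was -0.09 in place of -0.14, and that of LAMP1 was -0.01 in place of -0.02. In KD, CTSH went from 352 to 380.1 TPM and MAP1LC3B changed by 0.20, each above the change of every competent line. The changes of FLCN, ATG13, WIPI2, ATG9B, NBR1, CALCOCO2 and CTSA in KD were above as well, and those of ATG7, TECPR1 and TPP1 were below. The share of all genes in which KD was so placed was not computed, so nothing is read from these positions of KD. These positions rest on 1 library per line and treatment and were not tested.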

How the data were processed

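The authors sequenced polyadenylated RNA on an Illumina NovaSeq, with alignment by a company, and deposited TPM values per transcript, libraries in rows. The submitters' processing notes name kallisto and GRCh38. Versions, the annotation and strand handling are not given in the sources used here. TPM keeps no depth, so depth is unknown and no counting interval can be given. Of 188753 transcripts in the table, 169797 matched GENCODE 29 and held 97.0 to 97.4% of TPM per library. Their TPM were summed per gene over the primary assembly.

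Genes with a mean under 10 TPM over the 29 libraries were left out of tests, after the minimum named in the study's methods. Values were log2(TPM + 1), so changes of low genes are understated. limma 3.58.1 (R 4.3.3; lmFit, eBayes with trend) compared E with untreated in 10 lines, and EA with E and with untreated in the 8 competent lines. The line was a block in each fit, because the dishes of a line are the same cells, with Benjamini-Hochberg adjustment over all genes tested and a threshold of 0.05. KD was set beside the fits with no error. The scripts (Python 3.11.15, numpy 2.4.6, pandas 2.3.3, matplotlib 3.10.9) were tested on simulated data.

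The 57 genes and the other lists were chosen with earlier results of these data known. TFEB, TFE3, MITF, ATG9B, CALCOCO1, SQSTM1, MAP1LC3B and LAMP1 are given in full. Up to 12 genes per comparison, for E against untreated and for EA against E, are named for the largest changes past the threshold with 1 direction in each line. Of these, PSAP, OPTN, CTSA, GAA and NBR1 are given with fewer values, without ranges or p-values. Others complete a role group. From each other list, the 2 largest rises and falls past the threshold are named where there were any, except for 1 gene that is not reported here. Alternatives were another pseudocount, other filters, median centring, quantile normalization, no mitochondrial genes, no block, each line left out, and KD added to EA against E. Copies on alternate loci, and protein-coding transcripts alone, were alternatives chosen after seeing the data.

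Some of the genes overlap others on the opposite strand (ATG9B with NOS3, WIPI1 with ARSG, ATG3 with SLC35A5, MAP1LC3B with FBXO31, SQSTM1 with MGAT4B and CTSA with PLTP among them), so that reads in the overlaps cannot be told apart where strand was not used. MCOLN1 overlaps PNPLA6, and ATG14 overlaps HMGN1P1, on the same strand, where strand could not separate the reads.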

Additional observations from a re-analysis of the deposited data

Results flagged for a closer look

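Libraries or changes were set apart where the gap to the nearest other value was above Dixon's 95% critical value for the group. Chance sets apart about 1 in 20 groups, so that 4.25 would be set apart by chance among the 85 groups examined. There were 12, of which 9 were PAR.

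Among levels, PAR had 17.6 TPM of TFEB with EA (others 3.22 to 7.93) and 15.2 TPM of MITF untreated (others 8.14 to 11.2), both the highest of their group. PAR had the lowest SQSTM1, at 1281 TPM with E (others 1606 to 1864) and 1078 TPM with EA (others 1381 to 1679). It had the lowest GABARAPL1 too, at 42.4 TPM untreated (others 59.4 to 75.0) and 164 TPM with EA (others 291 to 329). Untreated Y643F was highest in CALCOCO1, at 41.8 TPM (others 21.8 to 32.1), and untreated Y821F lowest in OPTN, at 28.3 TPM (others 34.0 to 37.8).

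Among changes on the log2 scale, PAR changed by -0.97 in ATG9B from E to EA (other competent lines -0.51 to -0.12) and by -0.52 in GABARAPL1 (others -0.17 to 0.03). LAMP1 rose by 0.55 with E in PAR (others 0.33 to 0.44). MAP1LC3B changed by 0.17 from E to EA in Y750F, whereas the other competent lines lay between -0.24 and -0.05.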

How the results depend on the processing

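The counts of genes higher and lower with E against untreated, and with EA against untreated, stayed within 1.5 times under each alternative run. With a line left out, 35 to 37 were higher, where all lines gave 38 with E and 37 with EA. ATG5 and TECPR1 had the highest adjusted p-values among the genes called with E (0.0374 and 0.0315, limma), so their calls stood nearest the threshold. The count of genes lower with EA than with E went from 1 to 0 with no filter, with 10 TPM required in every library (where ATG9B was not tested) and with no replicate block, and was 0 to 1 with each line left out. Without the block on the line, 36 genes were higher and 7 lower with E, and ATG9B had an adjusted p of 0.364 (limma) between EA and E. With no filter its adjusted p was 0.131. Over all genes, the 171 higher and 43 lower with EA than with E became 58 and 9 with a minimum of 1 TPM, 5 and 1 with no filter, 9 and 0 with no block, 295 and 66 over coding transcripts alone, 133 and 72 with medians centred, 98 and 22 with KD included, 263 and 48 without mitochondrial genes, and 10 to 146 and 0 to 42 with a line left out.

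Values near 0 between EA and E changed sign. TFE3 was -0.0690 over coding transcripts alone and -0.00071161 to 0.0604 with a line left out. MITF was -0.00258688 with medians centred, -0.0294 with quantile normalization and -0.0384 to 0.0671 with a line left out. OPTN was 0.0106 over coding transcripts alone. For E against untreated, TFE3 lost its call over coding transcripts alone (adjusted p = 0.0823, limma), without the block (0.0582) and without PAR, WT, Y634F, Y726F or Y750F (0.0566 to 0.0789). The cause was not tested. Depth is unknown, and 1 library per line and treatment limits what can be said of any single line.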
